A study of Caenorhabditis elegans with 2 samples.

Results

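The 10 genes described here act in dosage compensation and sex determination in the nematode Caenorhabditis elegans, and their loci were examined for association with GEI-17, a PIAS-type SUMO E3 ligase. The genes were listed by name, with no measured value in the rule but with earlier results of these data known: xol-1, sdc-1, sdc-2, sdc-3, dpy-21, dpy-26, dpy-27, dpy-28, dpy-30 and capg-1, all 10 found by symbol among 19973 nuclear protein-coding genes of the annotation (Ensembl release 115, WBcel235). For each gene, the summits of regions found by chromatin immunoprecipitation and sequencing (ChIP-seq) were collected from 5 kb upstream of its annotated start to 1 kb past its end, which is called the gene window. The worms were whole young adults of strain OP572, aged 64 h, of pooled sexes and synchronized by bleaching and starvation as L1 larvae. The strain carries the unc-119(tm4063) mutation and the integrated transgene wgIs572, which holds wild-type unc-119 and gei-17 fused at its C terminus to TY1, EGFP and 3xFLAG tags. Anti-GFP antibody was used for the precipitation. The endogenous gei-17 gene is not listed as altered, the whole animals mix all tissues, and the share of males is not stated. Both samples, biological replicates 4 and 5, form 1 group, so no conditions were compared and no test was made. Worms without the tag were not analysed here, so the part of the signal that would remain without tagged GEI-17 was not tested at any locus.

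In C. elegans, hermaphrodites carry a pair of X chromosomes and males a single X. XOL-1 is the switch that turns on male development and keeps dosage compensation off when the X dose is low. Where XOL-1 is low, SDC-2 and its partners SDC-1 and SDC-3 bring a complex related to condensin to the X chromosomes of hermaphrodites, and this complex reduces transcription from both. The complex is loaded at recruitment elements on X that share a short GC-rich word known as the motif enriched on X. Several subunits of the complex are known to carry SUMO in this worm, and SUMO E3 ligases such as GEI-17 help to attach it to their targets.

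Each replicate and the pooled replicates had a list of 30000 candidate summits in build ce11, ranked by the deposited signal, a value the authors took from peak calling and whose scale was not stated. The irreproducible discovery rate (IDR) filter kept 1030 of the pooled summits, the lowest at a signal of 110.4. Signals were read within a list only. Read counts were not used, so the depth behind a summit is unknown. The pooled and replicate 5 lists held 20 and 23 mitochondrial summits, most of them near the top, and the replicate 4 list held 0, so ranks among nuclear summits are given where this matters. Neither gei-17 nor unc-119, the genes carried by the transgene, had a pooled summit in its window.

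A summit that passed IDR lay in the windows of 4 of the 10 genes, xol-1, sdc-2, dpy-28 and dpy-21. The same was true of 8.9% of all 19973 protein-coding genes. By chromosome, 2 of the 3 X-linked genes of the list (xol-1 and sdc-2, not sdc-1) had such a summit, against 15.4% of 2731 X-linked genes, and 2 of the 7 autosomal ones did, against 7.86% of 17242. Counts this small are a description only. The 4 genes were the same in the list of either replicate alone, taken to the same number of summits. The share of all protein-coding genes was then 9.08% in replicate 4 and 8.46% in replicate 5. All 5 summits concerned lay upstream of the gene starts, and none of the 25 pooled summits inside the gene bodies passed. Only the sdc-2 summit lay in the promoter window of its own gene, which spans 1000 bp before the start and 200 bp after it. That makes 1 of 10 genes against 2.99% of all protein-coding genes. When a summit counted only for the protein-coding gene with the nearest start, 2 of the 10 genes had one (xol-1 and sdc-2), against 4.08% of all genes, and in a window from 2000 bp upstream to the gene's end only sdc-2 did, against 5.14%. The windows of the 10 genes are longer than usual, with a median of 12717 bp against 8027 bp over all genes. Per length, they held 0.371 summits that passed IDR in every 10 kb, against 0.101 over the nuclear genome, a figure that rests on 5 summits.

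**Figure D1:**
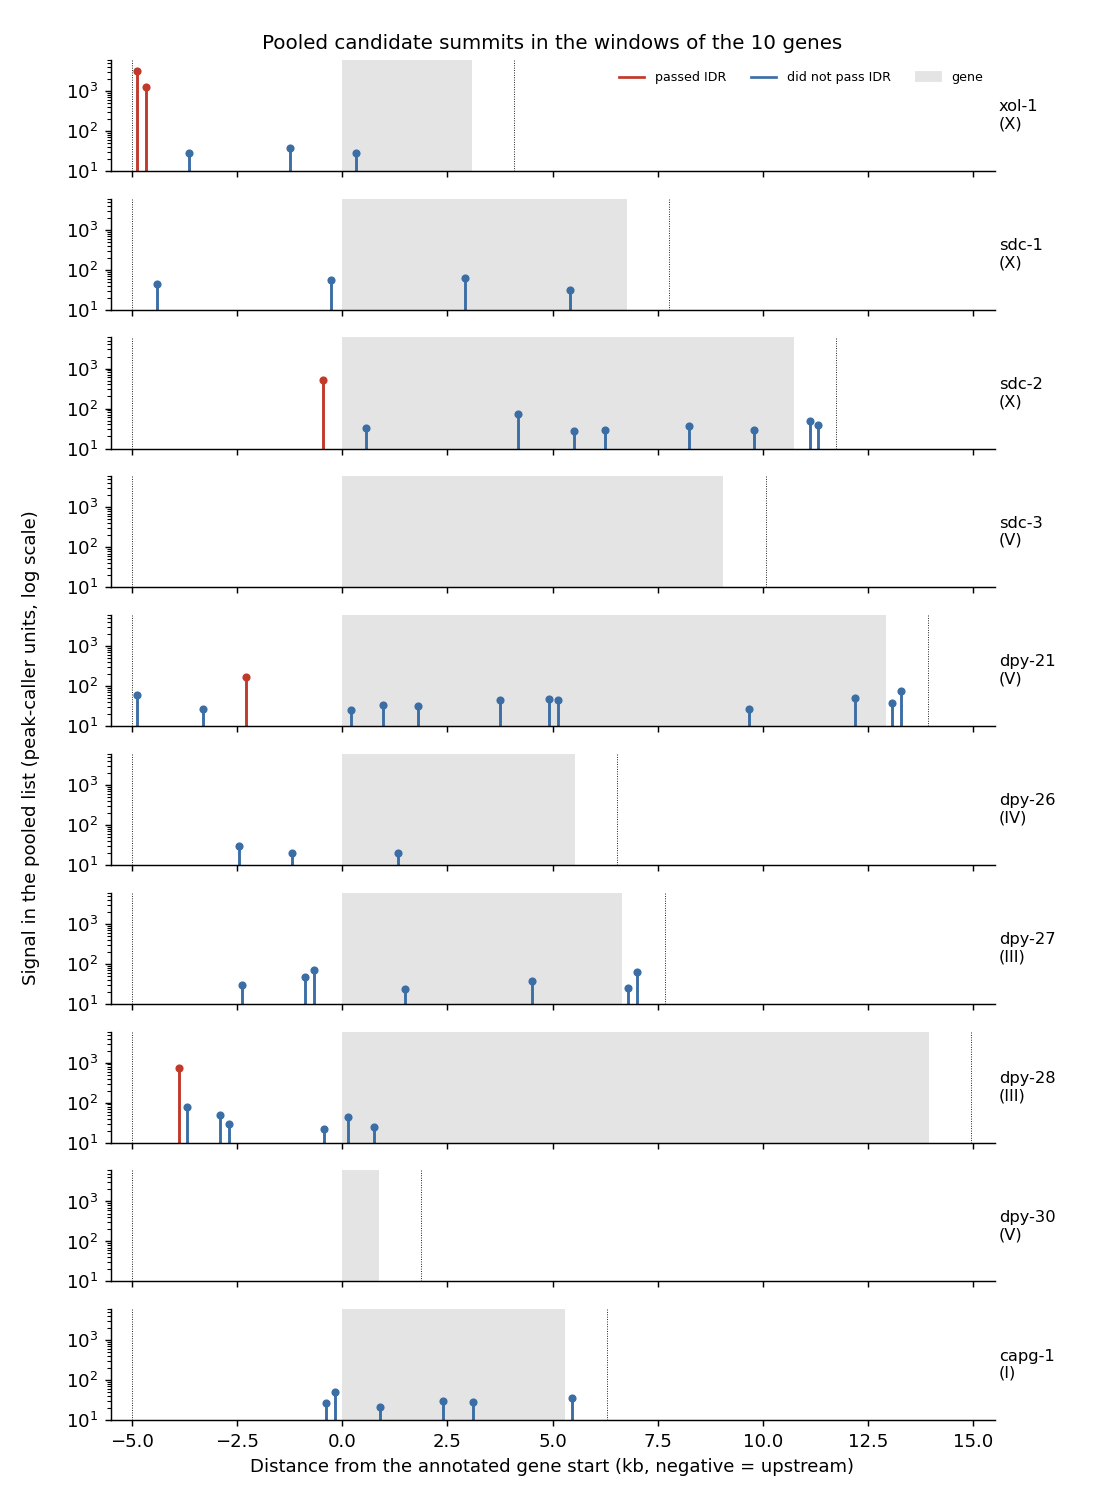
Signal of each pooled candidate summit (vertical axis, peak-caller units, log scale) by its distance from the annotated start of the gene (horizontal axis, kb) for the 10 genes, with the gene body shaded, the window ends dotted, and the chromosome after each name. The 5 summits that passed IDR (red) all lie upstream, 2 of them at xol-1, and sdc-3 and dpy-30 have no pooled summit.

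The strongest locus was that of xol-1 (WBGene00006962, X:8041313-8044409, plus strand). The signal of its highest summit was 3090.2 among pooled candidates, 1464.1 for replicate 4 and 1745.7 for replicate 5. Among nuclear summits this was rank 3 in the pooled list, rank 3 in replicate 4 and rank 1 in replicate 5, and the summits of the replicates lay within 5 and 9 bp of the pooled one. The summit was 4867 bp upstream of the start, inside the 5 kb limit of the window by a small margin. A second summit in the same region, 4667 bp upstream, had signals of 1221.9 (pooled), 477.7 (replicate 4) and 758.2 (replicate 5), at nuclear ranks 20, 23 and 20. The region was 1635 bp wide after pooling, 1316 bp in replicate 4 and 1558 bp in replicate 5, against a median of 444 bp over pooled candidates. Only 1 protein-coding gene, ZK899.5, had a higher summit in its window than xol-1. Neither summit lies inside an annotated gene and xol-1 has the nearest protein-coding start, but a tRNA gene (WBGene00022939) and the non-coding RNA gene C18A11.13 lie in the region, within 200 bp of the second summit; their part in the signal was not tested. Closer to xol-1, the pooled list held only low summits, at 3628 and 1229 bp upstream with signals of 27.5 and 36.3 and at 340 bp inside the gene with 27.9.

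The sequence under the xol-1 summits is shown because it holds the word known from recruitment elements of the dosage compensation complex. The 300 bases chrX:8036396-8036695 (ce11, plus strand, from the RefSeq assembly of WBcel235) run from 50 bases before the first summit, which is base 51, to past the second one. Capitals mark the 9-letter core CGCGCAGGG of the motif enriched on X, read here on the minus strand in its first copy and on the plus strand in its second.

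xol-1 upstream region: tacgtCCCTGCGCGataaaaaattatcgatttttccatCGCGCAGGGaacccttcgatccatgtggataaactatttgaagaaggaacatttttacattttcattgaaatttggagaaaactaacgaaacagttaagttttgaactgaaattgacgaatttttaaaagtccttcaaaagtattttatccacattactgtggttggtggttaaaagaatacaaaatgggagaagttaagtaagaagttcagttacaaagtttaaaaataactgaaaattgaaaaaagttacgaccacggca

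The 8-letter core GCGCAGGG was searched on both strands within 100 bp of each summit, and every copy of CGCGCAGGG contains it. Both copies at xol-1 matched all 9 letters. Their 8-letter cores were centred 41 and 7 bp before the highest summit, on opposite strands, with 26 bp between them. Read on its own strand with flanking bases, the copy on the minus strand is the first below and the copy on the plus strand the second.

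Minus strand copy: tatCGCGCAGGGacgt

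Plus strand copy: catCGCGCAGGGaacc

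These were the only copies of the 8-letter core in the windows of all 10 genes, which span 134.9 kb. The core is rare: it was within 100 bp of 0.16% of nuclear pooled candidates and 0.468% of those on X. Of 1010 nuclear summits that passed IDR, 2.38% had it, with 6.25% of those on X and 0.445% of those on the autosomes. Of the 48 nuclear candidates with the core, 24 (50%) passed IDR, against 3.37% of all nuclear candidates. On X this was 21 of 32 (65.6%), against 4.91% of all candidates on X. On the autosomes it was 3 of 16 (18.75%), against 2.91%, and the median nuclear rank of those 16 was 15025.5. Of the 10 highest nuclear summits, 5 had the core. Only 4 of 29980 nuclear candidates had 2 copies, all of them on X and all past IDR, at nuclear ranks 1, 3, 4 and 16. The xol-1 summit is the one at rank 3. The others, picked out after the counts had been seen, lay nearest to the starts of W02H3.3 and gtr-1 and inside mom-1, which encodes a protein needed for Wnt secretion. In replicate 4 they and xol-1 took the same ranks 1, 3, 4 and 16, and in replicate 5 the summits near W02H3.3, xol-1, mom-1 and gtr-1 were at nuclear ranks 2, 1, 4 and 16. X as a whole has more copies of the core than any autosome, 4.57 per Mb against 2.06 to 3.34. A match describes the sequence and does not show that a factor is bound through it, and no list of known recruitment elements was used.

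**Figure D2:**
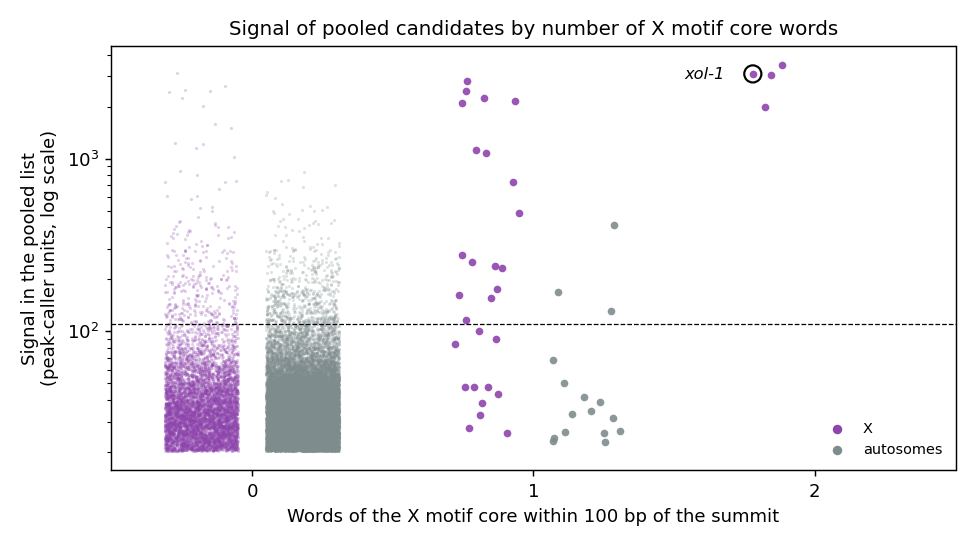
Signal of each nuclear pooled candidate (vertical axis, peak-caller units, log scale) by the number of copies of the 8-letter core within 100 bp of its summit (horizontal axis), with candidates on X in purple, those on the autosomes in grey, and sideways scatter within a column for visibility only. The dashed line is the lowest signal that passed IDR, 110.4. The 4 candidates with 2 copies, among them that upstream of xol-1 (circled), are on X and near the top of the list.

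The 3 genes most like xol-1, by the summed difference of log2 rank of their highest window summit over the 3 candidate lists, were mom-1, lev-9 and cest-16. All 3 windows hold the same summit, the one inside mom-1 with 2 copies of the core, at ranks 14 (pooled), 4 (replicate 4) and 24 (replicate 5), against 13, 3 and 20 for xol-1. The summed difference was 0.785. These ranks count the mitochondrial summits of the pooled and replicate 5 lists. Among nuclear summits the shared summit was at rank 4 in all 3 lists, against 3, 3 and 1 for xol-1. Likeness by nuclear rank was not computed.

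The SDC genes differed from each other. For sdc-2 (WBGene00004746, X:11522707-11533450, plus strand), whose product is the hermaphrodite protein that brings the complex to X, the highest summit lay 443 bp upstream of the start. Its signal was 521.8 in the pooled list (rank 64), 214.2 in replicate 4 (rank 61) and 309.4 in replicate 5 (rank 70). Among nuclear summits its ranks were 46, 61 and 47. The summits of the replicates lay 16 and 0 bp from the pooled one. The region was 350 bp wide, and its summit lay in no annotated gene, in no other protein-coding promoter window and within 200 bp of no non-coding gene. The other 8 pooled summits of the window reached at most 71.4. Over all 19973 protein-coding genes, 65 had a higher window summit than sdc-2, 32 of them on X.

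No copy of the X motif core lay within 250 bp of the sdc-2 summit, in contrast to the region of xol-1, and no GAGA repeat (GAGAGAGA, sought on both strands) did either. Within 250 bp, the core was found at 0.892% of candidates on X and 10.4% of summits on X that passed IDR, and the GAGA repeat at 6.42% and 15.5%. The bases within 100 bp of the summit, chrX:11522164-11522364 (ce11, plus strand), are shown for that contrast, with the 11 bases centred on the summit in capitals.

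sdc-2 upstream region: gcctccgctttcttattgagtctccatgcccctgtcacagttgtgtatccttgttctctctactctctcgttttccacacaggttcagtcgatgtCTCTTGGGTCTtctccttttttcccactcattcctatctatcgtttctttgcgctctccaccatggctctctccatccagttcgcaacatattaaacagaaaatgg

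The genes most like sdc-2 in rank were srg-45 and frm-7, which share a summit on chromosome V at ranks 68, 59 and 74 in the pooled, replicate 4 and replicate 5 lists, and arrd-10 on II at ranks 59, 57 and 59. The summed differences of log2 rank were 0.216 for the first pair and 0.462 for arrd-10.

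The genes of the partners of SDC-2 had no summit that passed IDR. By highest window signal, sdc-1 was above 75.5% of all protein-coding genes and 63.0% of X-linked ones, those with no pooled summit included. For sdc-1 (X:16275763-16282534), which encodes a zinc finger protein of the complex, the pooled window held 4 summits and none passed IDR. The highest, with a signal of 62.1 at rank 3837, lay in a coding exon 2912 bp from the start, and a summit 268 bp upstream had 55.2. The top of its window differed between the replicates: in replicate 4 it was 1580 bp upstream at rank 8512, and in replicate 5 it was 351 bp upstream at rank 2994. For sdc-3 (V:15039148-15048207), which encodes a zinc finger protein needed for X loading, the pooled list held 0 summits. Replicate 4 had 2 in its window, the higher at rank 13800, and replicate 5 had 3, the highest at rank 7129, at different positions.

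Among the condensin-like subunits, only dpy-28 had a summit that passed IDR in its window. In dpy-28 (III:10763131-10777076, plus strand), which encodes a HEAT-repeat condensin subunit, a summit 3878 bp upstream of the start was the second highest of chromosome III in the pooled list and replicate 4 and at rank 3 there in replicate 5. Its signal was 737.7 in the pooled list (rank 48), 367.2 in replicate 4 (rank 27) and 365.0 in replicate 5 (rank 64), with replicate summits 0 and 4 bp away. Among nuclear summits its ranks were 30, 27 and 41. This summit lay 54 bp upstream of the start of another gene, tasp-1, which encodes a homologue of the protease taspase, and in the promoter window of K01G5.10 as well. Position cannot tell to which of the genes such a region belongs, and dpy-28 has neither the nearest start nor a promoter window over it. The start of dpy-28 itself had pooled summits of 22.2 at 424 bp upstream and 42.8 at 147 bp downstream, neither past IDR. The closest genes in rank were C09G1.2, egg-5 and R12E2.11, with summed log2 rank differences of 0.351 for C09G1.2 and 0.384 for the pair that shares a summit.

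The bases from 100 before the dpy-28 window summit to the last one before tasp-1, chrIII:10759153-10759306 (ce11, plus strand), are shown as the strongest autosomal region of the 10 genes, again with 11 bases centred on the summit in capitals. They hold no copy of the X motif core and no GAGA repeat, and their GC content was 57.1%.

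dpy-28 window region: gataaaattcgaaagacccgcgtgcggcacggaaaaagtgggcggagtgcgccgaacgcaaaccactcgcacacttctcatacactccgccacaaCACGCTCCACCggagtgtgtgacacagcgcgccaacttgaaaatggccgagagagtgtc

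The other 3 subunits had no summit that passed IDR. By highest window signal, dpy-27 was above 79.5% of all protein-coding genes, those with no pooled summit included. For capg-1 this was 67.0%, and for dpy-26 it was 44.2%. In dpy-27 (III:3813018-3819679, minus strand), which encodes the SMC4-like ATPase found in this complex and not in mitotic condensin, the highest pooled summit was in its own promoter window, 674 bp upstream and within 200 bp of the non-coding RNA gene R13G10.5, with a signal of 69.4 at rank 2909. Replicate 5 had a summit at the same base with 45.0 at rank 2947, and replicate 4 had one 113 bp away with 29.1 at rank 5671. In capg-1 (I:7634492-7639785, minus strand), which encodes another HEAT-repeat subunit, the highest pooled summit was 158 bp upstream of the start at 51.5 (rank 6087). The nearest summits were at 34.2 (rank 3608) in replicate 4 and at 15.1 (rank 25187) in replicate 5. The window of dpy-26 (IV:12445801-12451335, minus strand), which encodes the kleisin subunit, held 3 pooled summits of 20.3 to 30.5, the highest at rank 17909 in a coding exon of the neighbour spe-44. Neither replicate had a summit in that window, and this was the only one of the 8 genes with a pooled summit whose highest summit overlapped no candidate in either replicate; those of the other 7 overlapped a candidate in both.

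DPY-21 is a demethylase of histone H4 lysine 20 that gives X its enrichment in the monomethylated form. In dpy-21 (V:17936282-17949193, minus strand), 13 pooled summits fell in the window, the most of the 10 genes, and 1 passed IDR, 2273 bp upstream of the start. Its signal was 165.9 in the pooled list (rank 483), 58.2 in replicate 4 (rank 882) and 97.5 in replicate 5 (rank 504). Among nuclear summits its ranks were 464, 882 and 481. Of the 4 genes with a summit past IDR, this was the weakest in each of the 3 lists. The summit lay 483 bp upstream of the start of Y59A8B.24, which is the nearest protein-coding start. The other 12 pooled summits lay between 25.3 and 73.8. Closest in rank were set-26 and tsr-2, which share a summit (summed log2 rank difference 0.129), and T28B8.1 (0.196).

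The bases within 100 bp of the dpy-21 window summit, chrV:17951366-17951566 (ce11, plus strand), are shown because they hold a near match to the X motif in an autosomal region, CGCGAAGGG, 76 bp past the summit on the plus strand. It differs from the 9-letter core CGCGCAGGG by 1 base. Searched on both strands, such near matches, exact ones included, lay within 100 bp of 1.22% of nuclear candidates and 4.01% of autosomal summits that passed IDR. The sequence is 62.2% GC, against a median of 40.8% over nuclear candidates and 45.8% over those that passed IDR, and its 11 central bases are in capitals.

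dpy-21 window region: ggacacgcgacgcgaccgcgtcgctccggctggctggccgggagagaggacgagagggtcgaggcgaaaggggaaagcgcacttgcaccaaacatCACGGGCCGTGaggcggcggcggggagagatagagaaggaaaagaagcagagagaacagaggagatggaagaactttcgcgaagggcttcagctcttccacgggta

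DPY-30 is a small subunit of the COMPASS histone H3 methyltransferase complexes that is also needed to load the dosage compensation complex on X. The window of dpy-30 (V:12191519-12192385, plus strand), the shortest of the 10 at 6867 bp, held 0 summits in the pooled list and in replicate 5. Replicate 4 had 4, the highest at a signal of 22.0 and rank 11881. Outside the window, the pooled list had summits of 22.2 at 1906 bp and 69.7 (rank 2880) at 3081 bp past the start. A pooled candidate of any signal was present for 8 of the 10 genes, against 64.2% of all protein-coding genes.

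**Figure D3:**
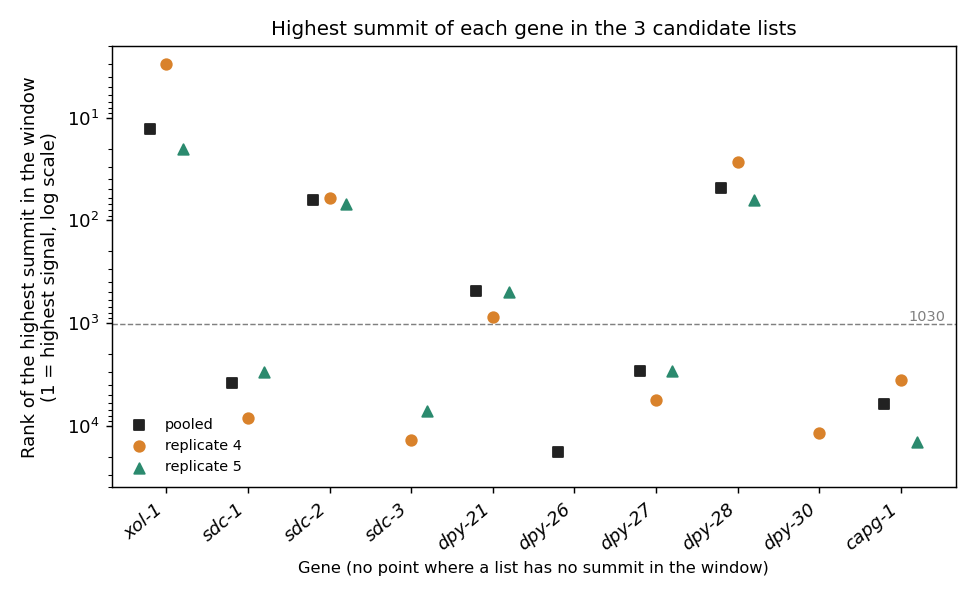
Rank of the highest summit in the window of each gene (vertical axis, log scale, highest signal at the top) in the pooled list (squares), replicate 4 (circles) and replicate 5 (triangles), with a dashed line at 1030, the number of summits that passed IDR. For xol-1, sdc-2, dpy-28 and dpy-21 all 3 points lie above the line, and for the other 6 genes every point lies below it.

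In order of the pooled signal, the genes ran from xol-1 (3090.2) over dpy-28 (737.7), sdc-2 (521.8), dpy-21 (165.9), dpy-27 (69.4), sdc-1 (62.1) and capg-1 (51.5) to dpy-26 (30.5), with sdc-3 and dpy-30 at no summit. The first 4 were in this order in each replicate as well. Among the lower genes the order was not stable: capg-1 was ahead of dpy-27 and sdc-1 in replicate 4, at ranks 3608, 5671 and 8512, and behind both in replicate 5, at 14382, 2947 and 2994. Among pooled summits of the 10 windows that did not pass IDR, the highest were at 76.0 (dpy-28), 73.8 (dpy-21), 71.4 (sdc-2) and 69.4 (dpy-27), well below the IDR boundary of 110.4.

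**Figure D4:**
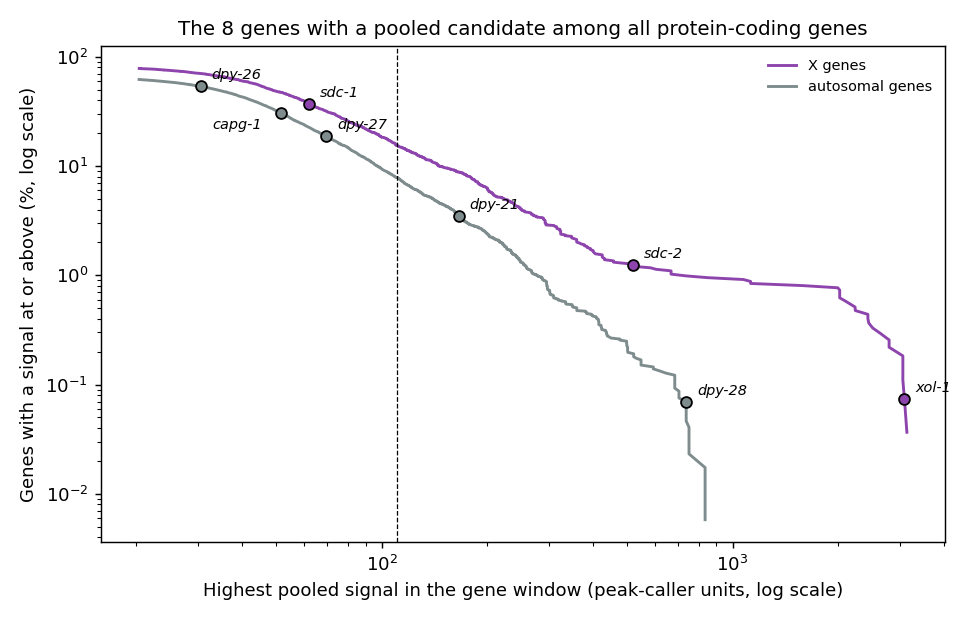
Share of protein-coding genes (vertical axis, percent, log scale) whose highest pooled summit in the gene window has at least the signal on the horizontal axis (peak-caller units, log scale), for X-linked genes (purple) and autosomal genes (grey), with the 8 genes that have a pooled summit as circles and the IDR boundary of 110.4 dashed. The xol-1 circle lies at the far end of the X curve, dpy-28 near the end of the autosomal curve, and the circles of dpy-26, capg-1, sdc-1 and dpy-27 left of the boundary.

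Other genes of the pathway were counted by the same window. Of 37 genes in 5 lists outside the 10, 5 had a summit that passed IDR, beside the 8.9% of all protein-coding genes. Among the elements that set the level of xol-1 by counting X chromosomes and autosomes, 1 of 5 had one. This was ceh-39, an X-linked homeobox gene whose product represses xol-1. Its window summit was 2626 bp upstream at 266.7 (rank 179, with 169 in replicate 4 and 212 in replicate 5). A tRNA gene lay within 200 bp of that summit. The nearest protein-coding start was that of T26C11.8, and the summit lay in no protein-coding promoter window. Of 20 genes of the sex determination pathway, 3 had one. For mog-4, which encodes an RNA helicase needed for the switch to oocytes, it lay in its own promoter window, 206 bp upstream, at 197.2 (rank 342). For tra-2, the membrane receptor that promotes female fates, and laf-1, an RNA helicase that lowers tra-2 activity, the summits were at 142.0 and 119.7. The tra-2 window summit lay in a coding exon of C15F1.5 and in the promoter window of eif-2Bgamma, within 200 bp of the snRNA gene sup-39, the ncRNA gene C15F1.14 and a piRNA gene. The laf-1 window summit lay in an intron of cox-6B and in the promoter window of swsn-3. Their ranks were 304 and 451 in replicate 4 and 1187 and 3615 in replicate 5.

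None of the 5 other condensin genes (mix-1, smc-4, capg-2, hcp-6 and kle-2) had a summit past IDR. The highest were mix-1, whose product is the SMC2-like partner of DPY-27, at 85.4 (rank 1826), and smc-4 at 84.9 (rank 1847). None of 5 COMPASS partners of DPY-30 had one, and the highest was ash-2 at 104.8 (rank 1164; rank 468 in replicate 4 and 908 in replicate 5), just under the boundary. Of the 2 methyltransferases for histone H4 lysine 20, set-4, which makes the higher methylated forms and acts with the complex on X, had one in its own promoter window, 281 bp upstream, at 161.7 (rank 512; rank 653 in replicate 4 and 601 in replicate 5). For set-1, which makes the monomethylated form, the highest summit was at 49.7 (rank 6658). Of 9 SUMO pathway genes, 1 had a summit past IDR in its window: uba-2, a subunit of the SUMO-activating enzyme, at 165.3 and 4813 bp upstream, inside an exon of vps-25. Lists of this size are too small to set against the 8.9% of all protein-coding genes.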

How the data were processed

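Coordinates refer to ce11, per the labels. Candidates (peaks and background together) were called from each replicate's alignment and from both together, each with a control alignment, and the IDR list was derived from them, per the deposited listings. The sources used here do not give the caller or the threshold of IDR. The authors deposited a signal value for each summit, which was used for ranks within a list. The IDR list equalled the 1030 pooled summits of highest signal.

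Summit positions were computed as region start plus offset and counted from 1. Gene and promoter windows were built on the annotation of Ensembl release 115 (WBcel235, the same coordinates as ce11) and sequences were read from RefSeq's WBcel235 assembly; ends of regions and genes were checked against chromosome lengths. Each summit counted for every gene whose window held it. The members, gene lists and motifs were chosen with earlier results of these data known. The genes named were fixed by rule: the 10 genes, up to 4 genes of each pathway list with a summit past IDR, the nearest start and any gene over the summits. The rule also named the 3 genes most like each of the 10 that had a summit past IDR in its window. Genes with values that did not pass IDR in the pathway lists, ZK899.5, W02H3.3 and gtr-1 were named after their values were seen. Likeness was the summed absolute difference of log2 rank over 3 lists, with mitochondrial summits counted in the ranks. The window assignment and word search were checked on simulated data. Python 3.11.15, numpy 2.4.6, pandas 2.3.3 and matplotlib 3.10.9 were used.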

Additional observations from a re-analysis of the deposited data

How the results depend on the processing

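With 1 group, depth unknown and no test, the alternatives show only how counts and ranks move. The 4 genes with a summit past IDR were the same 4 with replicate 4 or 5 alone, with the upper 50% of the IDR list by signal, with 2 times as many pooled summits, and in the window widened to 10000 bp upstream. The count fell to 1 (sdc-2) in the window cut to 2000 bp upstream and in the promoter window, and to 2 (xol-1 and sdc-2) when a summit counted only for the nearest start. Of the 37 genes of the pathway lists and the 9 SUMO genes, 6 had a summit past IDR in the gene window. This count was 8 with replicate 4 alone and 5 with replicate 5 alone. It was 4 with the upper 50% of the IDR list and 14 with 2 times as many summits. It was 7 in the wider window, and 2 in the narrower window, in the promoter window and by nearest start. The shares of genes were, for all, X-linked and autosomal genes in this order, 4.58%, 9.12% and 3.86% with the upper 50% of the list; 16.0%, 25.4% and 14.5% with 2 times as many summits; 5.14%, 8.86% and 4.55% in the narrower window; 2.99%, 5.05% and 2.67% in the promoter window; and 4.08%, 8.6% and 3.36% by nearest start. In the wider window they were 13.1%, 23.4% and 11.5%. With replicate 4 alone they were 9.08%, 14.1% and 8.29%, and with replicate 5 alone 8.46%, 15.5% and 7.34%. The median rank of the highest summit was 1696 over 8 genes and 237.5 for the same genes among summits of their own chromosome, which is lower by construction. In single replicates, where a different set of genes has a summit, it was 3608 over 9 genes (replicate 4) and 1725.5 over 8 genes (replicate 5). The X motif core was found at 1 gene with 50, 100 or 250 bp on either side. The 2 replicates form 1 group. No paired analysis was possible because there was no second group to pair with.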
